A study of Mus musculus with 8 samples.

Results

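Nuclear genes for respiratory complex III, complex IV, ATP synthase and cytochrome c were followed in the mRNA bound to polysomes, the strings of ribosomes on which proteins are made. The members were all probe sets of the array whose single annotated gene symbol begins with Uqc, Cox4 to Cox8 or Atp5, or is Cyc1 or Cycs. These were 93 of 45037 probe sets, for 47 of 18193 genes: 12 genes for complex III, 17 for complex IV, 17 for ATP synthase and 1 for cytochrome c. Of the 3 prefixes, Uqc also takes in 3 assembly factors (Uqcc1, Uqcc2 and Uqcc3), and Cox7 takes in the supercomplex factor Cox7a2l.

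The study measured 4 arrays of polysomal RNA from one-cell mouse embryos treated with alpha-amanitin, which blocks RNA polymerase II, and 4 from mouse oocytes arrested at metaphase II (MII), without that drug in the labels. Each array held a batch of 160 to 500 embryos or oocytes, described as an independent replicate, and its RNA was amplified by in vitro transcription in 2 rounds. No label used here gives the strain or age of the animals. Embryo stage and alpha-amanitin changed together and cannot be told apart. Fewer polysome-bound copies of an mRNA and a smaller pool of that mRNA cannot be told apart either, since total RNA was not analysed here.

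The respiratory chain sits in the inner membrane of mitochondria. Complex III passes electrons from ubiquinol to cytochrome c, complex IV passes them from cytochrome c to oxygen, and both build the proton gradient that turns the rotor of ATP synthase. The mouse egg and early embryo draw their ATP mainly from pyruvate burned in mitochondria inherited from the oocyte. A few core subunits of each complex are made inside the mitochondrion, and the subunits described here are made on cytoplasmic ribosomes and imported.

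Signals are deposited intensities in arbitrary units, scaled by the authors to a common mean, and the number of arrays limits the precision. Array medians lay between 27.8 and 71.8 for one-cell embryos and between 26.9 and 33.8 for MII oocytes. One-cell array 1 had the highest median, and it was also the brightest in the 18 hybridization control probe sets (geometric mean 14888). Those controls averaged 867 to 3727 across the remaining one-cell embryo arrays, while MII oocyte arrays gave 916 to 1375. Correlations of log2 signal were 0.763 to 0.944 among one-cell arrays and 0.928 to 0.958 among MII arrays. All 11 oocyte markers found on the array were bright enough to test. Summed signal of 12 cumulus and granulosa cell markers was 425 to 1615 on one-cell arrays and 507 to 638 on MII arrays. For 12 sperm and spermatid markers it was 347 to 1110 on one-cell arrays and 387 to 468 on MII arrays, and no marker averaged 0. Of these 24 markers, 7 of each list were bright enough to test. Among the tested ones Cyp11a1 and Prm2 rose and Akap4 fell, beside 20.6% of all genes that rose and 14.8% that fell. Akap4 lay above the array median on the 4 MII arrays alone, so it could be tested only through the group where it was high. The part of these markers in the results was not tested.

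Polysomal mRNAs of these genes were more often higher than lower in one-cell embryos. Of the 47 genes, 41 had a probe set bright enough to test, meaning above the array's median on at least 4 of the 8 arrays. Each gene is represented by its brightest such probe set, and a change is the one-cell mean minus the MII mean of log2(signal + 10), with limma's SE and a p adjusted by Benjamini-Hochberg over 23336 probe sets. On this scale 17 genes rose and 0 fell at an adjusted p under 0.05 (limma), while over all 12359 genes 20.6% rose and 14.8% fell (35.3% in either direction). The groups did not overlap for 19 members that were higher and 1 that was lower in one-cell embryos, beside 20.3% and 15.4% of all genes. The median change of the 41 genes was 0.61, against 0.17 for all genes. A positive change was found for 33 of them (80.5%), against 57.5% of all genes. Atp5g1 was the 1 tested gene that lay above the median of all 4 one-cell arrays and of 0 MII arrays, so the brightness filter let it in through the group where it was high.

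The share of tested genes that rose was above that of all genes in ATP synthase and complex IV, and the spread inside each complex was wide. For ATP synthase 8 of 15 tested genes rose (53.3%), with a median change of 1.09, or 0.92 above the median of all genes. In complex IV 6 of 13 tested genes rose (46.2%), with a median of 0.61, or 0.44 above all genes. In complex III 3 of 12 rose, with a median of 0.47, or 0.30 above all genes. Without the 3 assembly factors, 2 of 9 complex III genes rose, a share of 22.2% beside the 20.6% of all genes. Changes ran from -1.11 to 3.81 in ATP synthase, from -0.30 to 2.68 in complex IV and from -0.25 to 1.93 in complex III. These counts and medians describe the lists and were not tested against each other. Neither the order of the medians nor that of the shares is settled. Once each array was centred on its median, 3 of 12 complex III, 2 of 13 complex IV and 3 of 15 ATP synthase genes rose, beside 12.1% of all genes. With probe sets averaged, the median relative to all genes was 0.31 for complex III and 0.20 for complex IV, and without one-cell array 2 it was 0.38 and 0.33. With quantile normalization and no one-cell array 1 it was 0.86 for complex IV and 0.80 for ATP synthase.

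**Figure D1:**
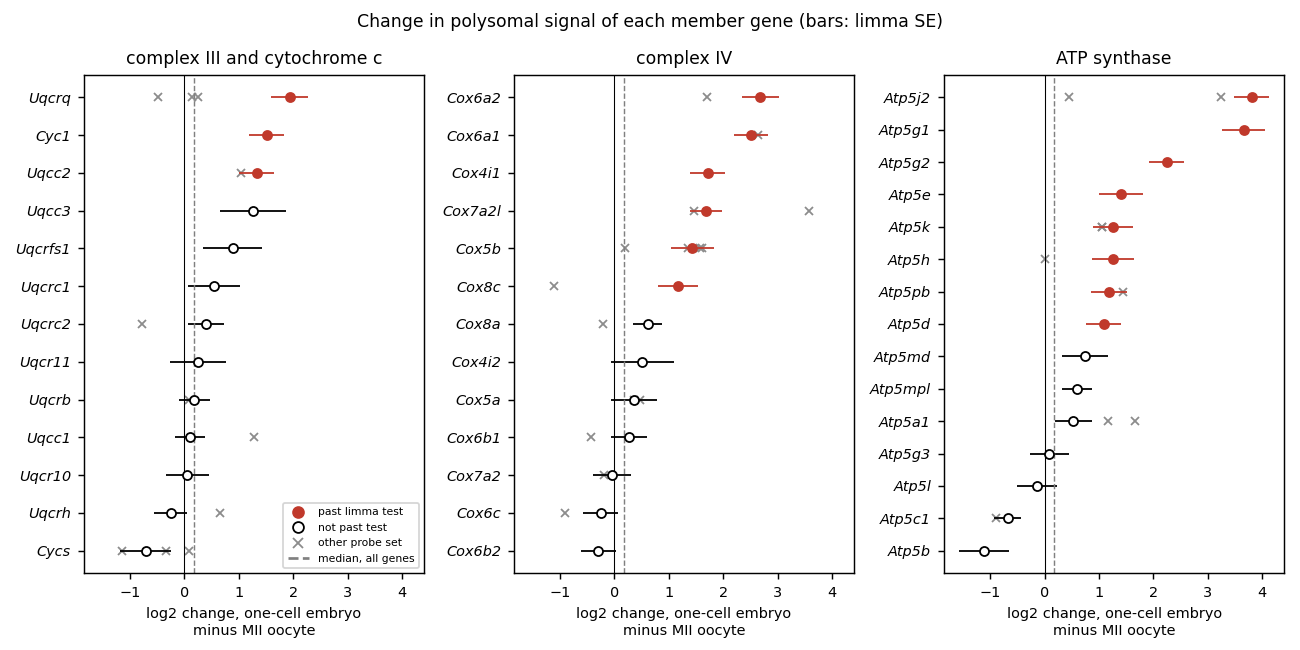
Each circle is the log2 change (one-cell embryo minus MII oocyte, x axis) of the brightest tested probe set of a member gene, with limma's SE as bars; filled circles passed the test, crosses are the gene's other tested probe sets and the dashed line is the median of all genes (0.17). Atp5j2, Atp5g1, Cox6a2, Cox6a1 and Atp5g2 lie farthest to the right, and the lowest circles are Atp5b, Cycs and Atp5c1, which did not pass.

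The direction was seen on each one-cell array for all 3 complexes. Taking each gene's deviation from its MII mean, and subtracting the same median over all genes, the ATP synthase median was 0.75, 1.06, 0.55 and 0.58 on one-cell arrays 1 to 4, and between -0.16 and 0.04 on MII arrays. For complex IV it was 0.46, 0.78, 0.41 and 0.61 on one-cell arrays, and between -0.23 and 0.30 on MII arrays. For complex III it was 0.43, 0.21, 0.53 and 0.56 on one-cell arrays, and between -0.21 and 0.11 on MII arrays. In none of the 3 complexes did the groups overlap. One-cell array 1 was the lowest of its group for 14 and the highest for 17 of the 41 genes, and it was the lowest for 34.7% and the highest for 44.2% of all genes.

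**Figure D2:**
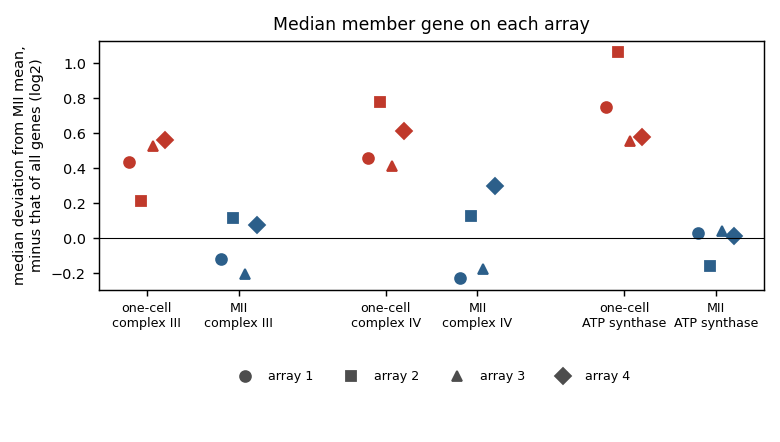
Median over the tested genes of a complex of the log2 deviation from each gene's MII mean, minus the same median over all genes (y axis), for each array, with one-cell arrays in red and MII arrays in blue. The one-cell points lie above the MII points in each complex, most clearly for ATP synthase (0.55 to 1.06 against -0.16 to 0.04).

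The scaling between arrays set how many of these genes were called. The median change of all genes was 0.17 on the deposited scale, -0.10 once arrays were quantile normalized and -0.18 once each array was centred on its median. The share of called genes that rose was 58.2%, 48.7% and 48.0% in these settings. Of the 17 genes, 12 kept their call after quantile normalization and 8 after centring. In all, 15 members were then called higher and 1 lower after quantile normalization, beside 15.7% of all genes higher, and 8 higher after centring, beside 12.1% of all genes. With the deposited scale the share of all genes was 20.6%. Cyc1, Uqcc2, Cox6a1, Cox6a2, Atp5g2 and Atp5j2 kept it in all 20 other settings that drew on every kind of probe set, and Atp5g1 in all 14 in which it was bright enough to test. The remaining 10 lost it in at least 1 setting. Without one-cell array 1, 18 of 39 tested member genes rose, beside 21.7% of all genes. With the hybridization controls as a covariate, 12 of the 17 kept their call.

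For 4 of the genes described next, 200 bases before the RefSeq start (build GRCm38.p6) are printed. They set the 3 genes of the rotor ring beside Cox6a1. Capitals mark 2 motifs searched on both strands, GCGCA and GCGC parted by any 1 base (the core of the site of NRF-1, a known regulator of respiratory genes) and CCGGAAG (the core of ETS family sites). Neither motif overlaps the other in these windows.
Atp5g1, chr11:96075632-96075831, minus strand: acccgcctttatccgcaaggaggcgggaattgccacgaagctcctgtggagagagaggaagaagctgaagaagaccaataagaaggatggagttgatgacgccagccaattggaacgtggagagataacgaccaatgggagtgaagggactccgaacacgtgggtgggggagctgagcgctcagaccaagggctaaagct
Atp5g2, chr15:102671048-102671247, minus strand: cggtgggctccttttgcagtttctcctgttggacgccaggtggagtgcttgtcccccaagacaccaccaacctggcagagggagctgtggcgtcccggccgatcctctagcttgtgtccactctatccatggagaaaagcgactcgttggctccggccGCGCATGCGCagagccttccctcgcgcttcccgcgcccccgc
Atp5g3, chr2:73911327-73911526, minus strand: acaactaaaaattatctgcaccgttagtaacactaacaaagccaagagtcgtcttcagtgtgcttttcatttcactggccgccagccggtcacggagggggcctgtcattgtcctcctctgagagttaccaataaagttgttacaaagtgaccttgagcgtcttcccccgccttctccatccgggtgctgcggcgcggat
Cox6a1, chr5:115348959-115349158, minus strand: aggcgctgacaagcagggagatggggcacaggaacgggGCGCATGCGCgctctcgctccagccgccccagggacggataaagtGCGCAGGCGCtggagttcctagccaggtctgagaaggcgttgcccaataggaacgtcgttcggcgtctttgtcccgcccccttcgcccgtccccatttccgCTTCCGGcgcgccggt

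The window of Cox6a1 holds 2 NRF-1 cores and 1 ETS core, that of Atp5g2 holds 1 NRF-1 core, and those of Atp5g1 and Atp5g3 hold neither. RefSeq promoter windows of 300 bases were matched for 36 of the 47 genes (39 windows). The NRF-1 core was found in 9 of the 39 windows (23.1%), against 4.60% of all 32851 windows. The window of Atp5g3 is among the 9, with a match that is not within the printed 200 bases. The ETS core was found in 11 (28.2%), against 8.86% of all windows. Among the tested genes with a window, 5 of the 8 with an NRF-1 core and 7 of the 22 without one rose. With an ETS core 4 of 10 rose, and without one 8 of 20. The same split was not made over all genes, of which 20.6% rose, and a link between a motif and a rise was not tested. The embryos were treated with an inhibitor of transcription, and a motif match is only a description of the sequence.

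In complex III, 3 of 12 tested genes rose (25%), beside 20.6% of all genes, and Uqcrc1 and Uqcrc2 were not among them. Uqcrq, a small membrane subunit, had a signal of 220.7, 251.7, 146.0 and 274.1 on one-cell arrays 1 to 4, against 34.5, 47.2, 40.8 and 87.1 on MII arrays 1 to 4. Its groups did not overlap, and it rose by 1.93 ± 0.34 (limma, adjusted p = 0.000349). The probe set behind this value carries the suffix that marks probes shared with other transcripts. The other 3 tested probe sets of Uqcrq changed by -0.49 to 0.25 and did not pass, and averaged over all 4 the change was 0.46 (adjusted p = 0.235), so its rise rests on 1 probe set.

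Cyc1, the haem-carrying cytochrome that hands electrons to cytochrome c, had 251.3, 138.0, 143.1 and 164.7 on one-cell arrays, against 41.8, 74.3, 56.0 and 43.6 on MII arrays. Every one-cell array lay above every MII array. The gene has 1 probe set, which rose by 1.52 ± 0.32 (limma, adjusted p = 0.00173). Uqcrfs1, the iron-sulfur protein that works beside it, had 9.3 on one-cell array 1 and 82.0 to 110.6 on the other one-cell arrays, against 18.2 to 36.1 on MII arrays. Its change of 0.89 ± 0.54 did not pass with all arrays (limma, adjusted p = 0.239). Without one-cell array 1 it was 1.48 ± 0.33 (adjusted p = 0.00291).

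The core proteins Uqcrc1 and Uqcrc2, which form the matrix-facing part of the complex, did not pass. Uqcrc2 had 2823, 2839, 2446 and 4401 on one-cell arrays, against 1587, 2291, 2149.8 and 3625 on MII arrays, a change of 0.40 ± 0.33. Its other probe set changed the other way, by -0.77 ± 0.39 (adjusted p = 0.152), so the direction of Uqcrc2 is not settled. After quantile normalization the first probe set passed (0.86 ± 0.30, adjusted p = 0.0474). The small subunits Uqcrb, Uqcrh, Uqcr10 and Uqcr11 changed by -0.25 to 0.26 in their brightest probe sets and did not pass. Without one-cell array 1 and after quantile normalization Uqcrh was called lower (-0.86 ± 0.25, limma, adjusted p = 0.016). Its other tested probe set changed the other way with all arrays, by 0.65 ± 0.37 (adjusted p = 0.206), and the mean of both by 0.20 ± 0.24. The direction of Uqcrh is therefore not settled.

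Among the assembly factors, Uqcc2, needed for the making of cytochrome b, had 195.9, 179.2, 129.6 and 172.8 on one-cell arrays, against 60.6, 88.9, 36.1 and 67.5 on MII arrays. The groups did not overlap, and Uqcc2 rose by 1.33 ± 0.32 (limma, adjusted p = 0.00448). Uqcc1 (0.10 ± 0.27) did not pass by its brightest probe set, although its other tested probe set rose by 1.28 ± 0.38 (adjusted p = 0.0149). Uqcc3 (1.26 ± 0.61) did not pass, and its groups overlapped.

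Cytochrome c itself, the carrier between complexes III and IV, did not rise. Cycs had 425, 2929, 2067 and 1855 on one-cell arrays, against 1788, 2665, 2258 and 3202 on MII arrays. One-cell array 1 was far below the others, and without it the change was -0.11, against -0.71 ± 0.47 with all arrays (limma, adjusted p = 0.288). One of the other 3 tested probe sets fell by 1.14 on the log2 scale (adjusted p = 0.00994), with 77.1 to 207.0 on one-cell arrays and 239.4 to 342.1 on MII arrays. The direction of Cycs therefore differs between probe sets, from -1.14 to 0.08.

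In complex IV the largest rises were those of both subunit 6a genes. Cox6a1, the form made in most tissues, had 4215, 5159, 3334 and 5529.5 on one-cell arrays, against 557, 908.5, 697 and 1045 on MII arrays. All one-cell arrays were above all MII arrays, and it rose by 2.51 ± 0.31 (limma, adjusted p = 1.45e-05), with 2.64 ± 0.28 for its other probe set. Cox6a2, the form known from heart and skeletal muscle, had 1192, 567, 354 and 648 on one-cell arrays, against 77.2, 121.3, 71.0 and 95.6 on MII arrays. It rose by 2.68 ± 0.35 (adjusted p = 2.18e-05), and its other probe set rose too, by 1.70 ± 0.53.

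Cox4i1, the general form of the subunit that binds regulatory nucleotides, had 262.2, 682.1, 442.2 and 414.9 on one-cell arrays, against 131.8, 117.9, 92.2 and 159.2 on MII arrays. Its groups did not overlap, and it rose by 1.71 ± 0.32 (limma, adjusted p = 0.000578, and 0.0542 after centring). Cox4i2, the form known from lung, had 157.7, 54.6, 34.8 and 13.4 on one-cell arrays, against 42.3, 7.2, 46.8 and 43.9 on MII arrays. The groups overlapped and its change of 0.51 ± 0.58 did not pass.

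Cox7a2l, which joins complexes III and IV into supercomplexes, had 597, 1213, 953 and 760.4 on one-cell arrays, against 197.8, 289.2, 248.6 and 307.8 on MII arrays. It rose by 1.69 ± 0.29 (limma, adjusted p = 0.000313, and 0.0599 after centring). Its other probe sets changed by 1.47 ± 0.55 (adjusted p = 0.0503) and 3.58 ± 0.38, so they share the direction and differ in size. Its relative Cox7a2, the general form of subunit 7a, had 2037.5, 2164, 1369.7 and 2389 on one-cell arrays, against 1167, 2763, 1777 and 2853 on MII arrays. Those groups overlapped, and the change was -0.05 ± 0.34.

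Cox5b, a matrix-side subunit that binds zinc, had 8017, 3399.9, 1961 and 2942 on one-cell arrays, against 904.5, 1604, 1089.7 and 1842 on MII arrays. It rose by 1.43 ± 0.40 (limma, adjusted p = 0.0112), and 4 of its 5 tested probe sets rose. One-cell array 1 was the highest, and with the hybridization controls as a covariate the change was 0.61 ± 0.33 (adjusted p = 0.192). Cox5a, its partner, had 3172, 12278, 6833 and 8924 on one-cell arrays, against 4324, 6346, 3994 and 7956 on MII arrays. Its groups overlapped, and none of its 3 probe sets passed (0.36 to 0.47). After quantile normalization its change was 0.86 ± 0.29 (limma, adjusted p = 0.0434), and Cox5a then counted as higher.

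The other complex IV subunits showed smaller differences. Cox8c, a testis form of subunit 8, had 1208, 385, 292.2 and 491 on one-cell arrays, against 176.5, 274.9, 225.9 and 220.9 on MII arrays. It rose by 1.16 ± 0.37 (limma, adjusted p = 0.0235), but its other probe set changed by -1.11 ± 0.48 (adjusted p = 0.0894) and the mean of both by 0.03 ± 0.39. Leaving out MII array 1 also ended its call (1.06 ± 0.41, adjusted p = 0.0691). Cox8a, the general form, had 912, 1229.8, 815 and 1186 on one-cell arrays, against 554, 737, 629 and 760.4 on MII arrays, and its change of 0.61 ± 0.27 did not pass (adjusted p = 0.1) although the groups did not overlap. A second tested probe set of Cox8a changed by -0.21 ± 0.55.

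Cox6b1, which faces the intermembrane space, had 822, 891, 632 and 1057 on one-cell arrays, against 393, 975, 595 and 1014 on MII arrays (0.27 ± 0.33). Cox6b2, its testis form, had 859.6, 745, 398 and 821 on one-cell arrays, against 812, 1205, 556.5 and 894.5 on MII arrays (-0.30 ± 0.32). Neither passed the test, and both pairs of groups overlapped. Cox6c did not pass by its brightest probe set (-0.26 ± 0.32), while its other probe set fell by 0.90 on the log2 scale (limma, adjusted p = 0.0477). Cox7a1, Cox7b2, Cox7c and Cox8b were too dim to test: their 5 probe sets read 0.6 to 40.2 on one-cell arrays and 0.9 to 30.3 on MII arrays.

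**Figure D3:**
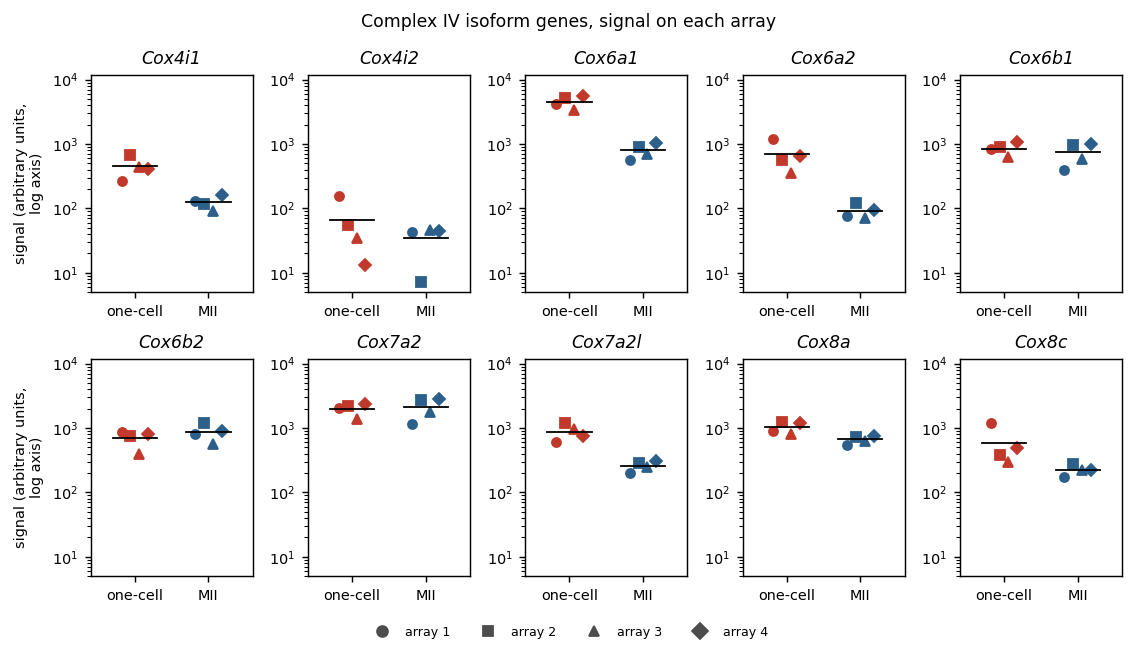
Signal of the brightest tested probe set (y axis, arbitrary units, log axis) on each one-cell array (red) and each MII array (blue) for complex IV genes that come in several forms, with group means as lines and marker shapes for array numbers. Both Cox6a genes, Cox4i1, Cox7a2l, Cox8a and Cox8c have groups that do not overlap, and Cox6b1, Cox6b2, Cox7a2 and Cox4i2 have groups that do.

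In ATP synthase 2 of the 3 rotor ring genes rose, beside 20.6% of all genes. Of these, Atp5g1 passed the brightness filter only through the one-cell arrays. Atp5g1, Atp5g2 and Atp5g3 encode the same mature subunit c and differ in the leader that directs import. Atp5g1 had 147.4, 236.6, 155.4 and 279.2 on one-cell arrays, against 5.8, 15.2, 3.6 and 3.5 on MII arrays. It rose by 3.66 ± 0.39 (limma, adjusted p = 3.96e-06), and because its MII signal lay under the median of each array the size of the rise is poorly set.

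Atp5g2 had 427.9, 923.2, 715.1 and 1129.9 on one-cell arrays, against 113.1, 197.0, 161.1 and 141.9 on MII arrays. Its groups did not overlap, and it rose by 2.25 ± 0.32 (limma, adjusted p = 5.79e-05). Atp5g3 had 169.3, 609.2, 484.3 and 368.4 on one-cell arrays, against 414.2, 259.0, 411.3 and 327.9 on MII arrays. These groups overlapped, and its change of 0.09 ± 0.35 did not pass.

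The difference between 2 genes' changes was compared for 8 pairs of related genes by a two-sided exact permutation test over the arrays. Atp5g1 exceeded Atp5g3 by 3.57 ± 0.49, Atp5g2 exceeded Atp5g3 by 2.16 ± 0.39, and Atp5g1 exceeded Atp5g2 by 1.41 ± 0.22 on the log2 scale (SE over arrays, n = 4 per group). Differences with Atp5g1 depend on the offset added before log2, because its MII signal was dim: with an offset of 50, Atp5g1 exceeded Atp5g2 by 0.13 (exact p = 0.486) and Atp5g3 by 2.04. The difference between Atp5g2 and Atp5g3, both bright in each group, was then 1.91. For Cox7a2 minus Cox7a2l the difference was -1.73 ± 0.35. With the offset of 10, the groups did not overlap in any of these 4 pairs, which gives exact p = 0.0286, and no smaller value can be reached with 4 arrays a group. After Benjamini-Hochberg adjustment over the 8 pairs it was 0.0571, so no pair passed.

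The other 4 pairs had overlapping groups. Cox6a1 minus Cox6a2 differed by -0.18 ± 0.36 (exact permutation p = 0.8), Cox4i1 minus Cox4i2 by 1.20 ± 0.87 (exact p = 0.257), Cox6b1 minus Cox6b2 by 0.57 ± 0.31 (exact p = 0.114) and Cox8a minus Cox8c by -0.55 ± 0.48 (exact p = 0.286). After adjustment these p were between 0.183 and 0.8.

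**Figure D4:**
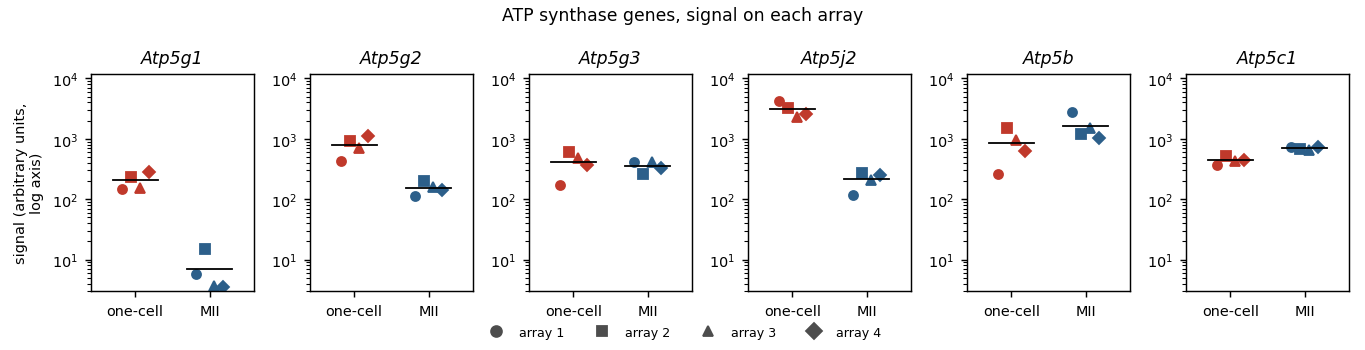
Signal (y axis, arbitrary units, log axis) on each one-cell array (red) and each MII array (blue) for the rotor ring genes Atp5g1, Atp5g2 and Atp5g3, the membrane subunit Atp5j2, the catalytic-head subunit Atp5b and the central stalk subunit Atp5c1, with group means as lines. Atp5g1, Atp5g2 and Atp5j2 separate upward, Atp5c1 separates downward (364 to 509.9 against 661 to 732), and Atp5g3 and Atp5b overlap.

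Atp5j2, subunit f of the membrane part, rose in the same range as Atp5g1, and which of them changed more depends on the setting: with an offset of 1 the changes were 3.87 and 4.84, and with an offset of 50 they were 3.57 and 2.13. It had 4259, 3222, 2304 and 2529 on one-cell arrays, against 118.1, 272.2, 210.0 and 255.5 on MII arrays. The rise was 3.81 ± 0.32 (limma, adjusted p = 4.26e-07). A second probe set rose by 3.24 ± 0.28, with 585 to 907.5 on one-cell arrays and 54.2 to 86.1 on MII arrays, and the remaining one did not pass (0.45 ± 0.37). Atp5k, subunit e, which meets subunit f where ATP synthase pairs into dimers, rose by 1.27 ± 0.37 (adjusted p = 0.0141). Its signal was 441.5 to 1896 on one-cell arrays and 302.1 to 416.6 on MII arrays, with one-cell array 1 the highest. With the hybridization controls as a covariate its change was 0.50 ± 0.30 (adjusted p = 0.25). Of the other membrane subunits, Atp5md (0.75 ± 0.42), Atp5mpl (0.60 ± 0.28) and Atp5l (-0.13 ± 0.36) did not pass.

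The catalytic head and the central stalk did not move as one. Atp5e and Atp5d, small subunits of the central stalk, rose. Atp5e had 117.5, 176.1, 67.5 and 59.3 on one-cell arrays, against 21.8, 23.9, 41.0 and 37.0 on MII arrays, a change of 1.41 ± 0.40 (limma, adjusted p = 0.0125). Atp5d changed by 1.09 ± 0.32 (adjusted p = 0.0155), with 301.1 to 851.9 on one-cell arrays and 182.4 to 267.8 on MII arrays. One-cell array 1 was its highest. The 1 tested probe set of each gene carries the suffix that marks probes shared with other transcripts. Both calls were lost after quantile normalization (adjusted p = 0.0544 and 0.107) and after centring (0.0515 and 0.144). They were also lost with the hybridization controls as a covariate (1.23 ± 0.45 for Atp5e, limma, adjusted p = 0.0564, and 0.52 ± 0.29 for Atp5d, 0.207). That of Atp5e was also lost without one-cell array 2 (1.14 ± 0.44, adjusted p = 0.062).

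The larger subunits of the head and central stalk gave other values. Atp5b, the catalytic beta subunit, had 259.1, 1528, 953.2 and 615.4 on one-cell arrays, against 2804, 1206, 1534 and 1022 on MII arrays. Its change of -1.11 ± 0.45 did not pass (limma, adjusted p = 0.0733). Without one-cell array 2 it was -1.49 ± 0.44 (adjusted p = 0.0177), and without one-cell array 1 it was -0.65 ± 0.36 (adjusted p = 0.195). It did not pass after quantile normalization (adjusted p = 0.149) or after centring (0.14) either. Atp5c1, the gamma subunit of the central stalk that turns inside the head, had 364.4, 509.9, 427.4 and 444.8 on one-cell arrays, against 719.5, 688.7, 661.1 and 731.6 on MII arrays. All one-cell arrays were below all MII arrays, yet the change of -0.68 ± 0.25 missed the threshold (adjusted p = 0.0514). It passed as lower in 7 other settings, among them quantile normalization (-0.74 ± 0.25, adjusted p = 0.038).

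Atp5a1, the alpha subunit, had 845.5, 2362, 1981.5 and 1349.7 on one-cell arrays, against 1297, 1005, 1114 and 834 on MII arrays. By this probe set it did not pass (0.53 ± 0.33), and without one-cell array 1 it did (0.81 ± 0.27, limma, adjusted p = 0.0302). Its other 2 probe sets rose, by 1.17 ± 0.35 and 1.66 ± 0.55.

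Of the 4 genes of the peripheral stalk, which holds the head still, 2 were tested and both rose, beside 20.6% of all genes. Atp5pb, subunit b, had 294.5, 847.3, 791.4 and 783.7 on one-cell arrays, against 283.3, 239.9, 265.1 and 291.0 on MII arrays. It rose by 1.19 ± 0.33 (limma, adjusted p = 0.0104), one-cell array 1 lay just above the highest MII array, and its second probe set rose by 1.45 ± 0.32. The call was lost after quantile normalization (adjusted p = 0.064) and after centring (0.3). Atp5h, subunit d, rose by 1.26 ± 0.38 (adjusted p = 0.0175), with 494.8 to 861.1 on one-cell arrays and 105.4 to 466.8 on MII arrays. Its second probe set changed by 0.01 ± 0.34, and averaging both gave 0.64 ± 0.33 (adjusted p = 0.158). The call was also lost after centring (0.88 ± 0.53, limma, adjusted p = 0.245), and without MII array 2 (0.82 ± 0.30, adjusted p = 0.0515) or one-cell array 2 (1.15 ± 0.42, adjusted p = 0.0505). Atp5j and Atp5o, the remaining stalk genes, were too dim to test, with 7.9 to 144.2 on one-cell arrays and 1.7 to 45.0 on MII arrays.

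Different probe sets of a gene often differed in whether they passed the test. Their changes were close in some genes (1.05 to 1.27 for Atp5k) and far apart in others (-0.49 to 1.93 for Uqcrq). Of 23 genes with several tested probe sets, 3 had all of them higher (Cox6a1, Cox6a2 and Atp5pb), 8 had none that passed, 10 had some higher and some that did not pass, and 2 (Cox6c and Cycs) had 1 lower and the rest that did not pass. No gene had probe sets called in both directions. Over single probe sets, 29 of the 76 tested rose and 2 fell, while 19.3% of all tested probe sets rose and 12.8% fell (32.1% in either direction). Of the 29, 12 carry a suffix that marks probes shared with other transcripts. Counting genes only by probe sets without that suffix, 2 of 12 tested complex III genes, 6 of 13 complex IV genes and 7 of 13 ATP synthase genes rose, beside 20.2% of all 11893 genes counted in that way.

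**Figure D5:**
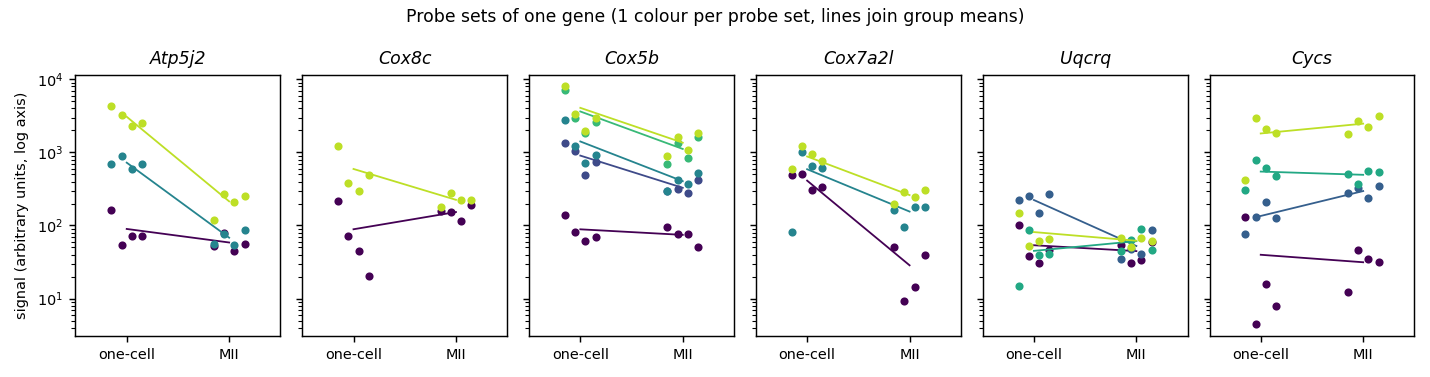
Signal (y axis, arbitrary units, log axis) of each tested probe set of Atp5j2, Cox8c, Cox5b, Cox7a2l, Uqcrq and Cycs on the one-cell and MII arrays, 1 colour per probe set within a gene, with lines joining group means. Probe sets of Cox5b and Cox7a2l slope the same way, those of Cox8c slope opposite ways, and the steep line of Uqcrq is a single probe set.

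Other genes of the same pathway were counted with the same test. Of 31 tested complex I subunits, which feed electrons into the chain from NADH, 16 rose and 1 fell, with a median change of 0.87, beside 20.6% of all genes that rose and 14.8% that fell. Ndufb7 (203 ± 44.4 on one-cell arrays and 16.2 ± 4.54 on MII arrays, SD, n = 4 each) and Ndufb11 (2072 ± 507 and 369 ± 125) had the smallest p, with rises of 3.01 ± 0.34 and 2.49 ± 0.32. Ndufb7 and Ndufs7 (2.78 ± 0.46), both among the 16, lay above the array median on the 4 one-cell arrays alone. The sizes of their rises are therefore poorly set, and the filter let them in through the group where they were high. Ndufa1 fell, by 2.12 on the log2 scale (limma, adjusted p = 0.000713). Of the 4 complex II genes, Sdhb (1.78 ± 0.31) and Sdhd (2.28 ± 0.45) rose, the flavoprotein Sdha fell (-1.29 ± 0.43, adjusted p = 0.0294) and Sdhc did not pass.

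Factors that build the complexes showed both directions. Of 18 tested complex IV assembly factors, 6 rose and 2 fell, to be read beside the same shares of all genes. Surf1, which helps to start the complex, rose by 1.85 ± 0.26 and Cmc1 by 1.5 ± 0.33, while Cox15 (-1.62 ± 0.44) and Cox11 (-0.97 ± 0.33), which supply haem and copper, fell. Of the complex III factors outside the members, Bcs1l and Ttc19 were tested and did not pass. The ATP synthase inhibitor Atpif1 rose (1.25 ± 0.34, limma, adjusted p = 0.00987), and the assembly factors Atpaf1 (0.32 ± 0.29) and Tmem70 (0.38 ± 0.32) did not pass.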

How the data were processed

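Polysomal RNA of 4 batches of alpha-amanitin-treated one-cell embryos and 4 of MII oocytes was amplified in 2 rounds and labelled with biotin, per the labels, on arrays of 1 colour. Each probe set has 1 linear intensity on each array, as the authors deposited it. From the values, the mean, trimmed by 2% at either end, was 148 to 149 on all 8 arrays, so they had been scaled to a common mean. Neither array software, scaling method nor genome build is given in the sources used here. Intensities carry no detection calls here, and amplification favours the 3′ ends of mRNAs.

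Of 45101 probe sets, 64 controls were left out of the tests, and platform annotation gave 1 symbol to 34945, several to 932 and none to 9160. All 47 member genes have a RefSeq entry. Intensities were used as deposited, 10 was added before log2, and 23336 probe sets above the array median on at least 4 arrays entered limma 3.58.1 (R 4.3.3; lmFit, then eBayes with the variance following mean signal; two-sided tests; Benjamini-Hochberg adjustment; threshold 0.05). Related genes were compared by exact permutation tests. The replicates are independent batches per the series' design text.

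Array values are given for up to 4 genes per complex and direction with the largest change past the test, for related pairs, and for Cyc1 and Cycs; other members are described by ranges or were added after their values were seen. Members and lists were chosen with earlier results of these data known. The fit was tested on 3 simulated runs with 200 of 23336 probe sets changed. It recovered 2.67% of the 2-fold and 49.3% of the 4-fold changes, and 5.01% of its calls were false. In the data 32.1% of probe sets were called, so the setting differs and these shares do not carry over. Alternatives covered normalization, offset, filter, variance model, array weights, replicate block, each array left out, and averaging of probe sets; the control covariate, quantile normalization without one-cell array 1, and probe sets without shared suffix were added after the data were seen. Same-numbered arrays were checked for pairing by the correlation of their deviations from group means, which ran from -0.16 to 0.14, so the numbers do not pair them.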

Additional observations from a re-analysis of the deposited data

Results flagged for a closer look

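Cox4i2 on MII array 2 had a signal of 7.2, while the other MII arrays had 42.3 to 46.8. The gap is 0.931 of the range of the 4 MII arrays, above the critical value of Dixon's test for 4 values. It was the only case among 38 groups of 4 arrays examined (19 genes), and chance alone gives about 1 in 20. The gene's change did not pass the test with or without that array.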

How the results depend on the processing

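All 17 calls of member genes held with offsets of 1 and 50, without the filter, without the variance trend and with array weights. They also held with the replicate block, under which 4321 probe sets rose and 2888 fell; it changed no member call, and the array numbers do not pair the samples. Scaling mattered more. Quantile normalization gave medians relative to all genes of 0.57 for complex III and 0.96 for complex IV. It called 5 of 15 ATP synthase genes higher and 1 lower, beside 15.7% of all genes higher. Changes were then -0.26 for Atp5g3, 0.40 for Cox7a2 and 0.31 for Cox6a1 minus Cox6a2. Centring gave 2689 probe sets higher in all, -0.28 for Atp5g3 and -0.12 for Cox6b1. It called 3 of 12 complex III, 2 of 13 complex IV and 3 of 15 ATP synthase genes higher, beside 12.1% of all genes. Offsets of 1 and 50, the 75th percentile filter, array weights and averaging of probe sets each made 1 ATP synthase gene lower, Atp5c1. The offset of 50 put Cox6a1 minus Cox6a2 at 0.16. Without a filter the ATP synthase median was 0.73, and above the 75th percentile it was 1.11, with 0.91 for complex IV. Array weights gave 0.71 for complex IV, and averaging gave 0.20 for complex IV and -0.083 for Cox6b1. The control covariate called 1 complex III gene lower (Uqcrh) and gave -0.068 for Cox4i2 and 0.17 for Cycs. Quantile normalization without one-cell array 1 called 1 complex III gene lower (Uqcrh), gave 0.86 for complex IV, 5 ATP synthase genes higher and 1 lower (Atp5c1), and -0.10, 0.22 and 0.21 for Cox4i2, Cox7a2 and Cycs. 

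Leaving out 1 array at a time gave 3508 to 4439 probe sets higher and 2222 to 3251 lower in all. Complex III had 3 to 4 genes higher (median 0.16 to 0.44), complex IV 5 to 6 (0.33 to 0.80) and ATP synthase 5 to 8 higher and 0 to 1 lower (0.62 to 1.01). The 5 came without one-cell array 2, which also made Atp5b lower. Changes ran from -0.15 to 0.45 for Atp5g3, -0.0028 to 0.45 for Cox6b1, -0.31 to 0.12 for Cox7a2 and -0.30 to 0.16 for Cox6a1 minus Cox6a2, so none of these directions is settled. The cause of these shifts was not tested. Dim signals limit Atp5g1 and the 6 genes not tested.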

Other observations

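Regulators of mitochondrial gene expression were measured in the same arrays. Of 9 tested, 4 rose and 1 fell, beside 20.6% and 14.8% of all genes, and they are named here after their values were seen. Polrmt, the mitochondrial RNA polymerase, had 680 ± 148 on one-cell arrays and 93.2 ± 46.1 on MII arrays (SD, n = 4 each), a change of 2.83 ± 0.34. Tfb1m, which methylates mitochondrial ribosomal RNA, rose by 2.69 ± 0.32, and Nrf1, whose site is described above, rose by 2.01 ± 0.29 (1474 ± 356 on one-cell arrays and 357 ± 78.4 on MII arrays). Tfam, which packs mitochondrial DNA, rose by 1.36 ± 0.31. Tfb2m, which opens mitochondrial promoters for the polymerase, fell by 2.06 on the log2 scale, with 282 ± 50.6 on one-cell arrays and 1238 ± 345 on MII arrays (limma, adjusted p = 5.19e-05).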
